A study of Mus musculus with 24 samples.

Results

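Mouse genes of NF-kB and inflammatory signaling, 34 in all, were examined for H3K27 acetylation (H3K27ac), a histone mark of active promoters and enhancers, in quadriceps myofibers. They were taken by name, under a rule that uses no measured value, out of 21000 protein-coding genes with a curated RefSeq transcript on mm10. Earlier results of these data were known when the members and their classes were chosen. The 34 genes comprise 6 NF-kB subunits and IkB kinases, 11 receptors and adaptors, 2 other transcription factors, 5 inhibitors, 6 secreted proteins and 4 other induced effectors. The first 3 of these classes are called pathway components below, 19 genes in all.

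The mice were male and female C57BL/6 by the labels (C57BL/6J in the study's methods), 10 weeks old at treatment onset, and received vehicle (DMSO) or prednisone at 1 mg/kg once weekly. Myofibers from the vehicle mice and from mice 4, 6 and 8 days after the fifth prednisone injection were isolated with collagenase and filtered. Each of the 8 groups of sex and day had 2 H3K27ac ChIP libraries and 1 input library, and 1 deposited peak list. The treated groups had vehicle injections on the days between prednisone doses. A peak list holds no value per library, so no test between groups could be made, and the intervals given below (Wilson, 95%) cover counting error only.

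NF-kB is a family of dimeric transcription factors that IkB proteins hold in the cytoplasm. Signals from Toll-like, interleukin 1 and TNF receptors pass through adaptors and ubiquitin ligases to the IkB kinases, which mark IkB for degradation and free NF-kB to enter the nucleus. Its targets include chemokines, cytokines and adhesion molecules, and also its own inhibitors, which close the loop. Prednisone acts through the glucocorticoid receptor (GR), which is known to restrain NF-kB-driven transcription.

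The 8 lists differ in size, and this bears on every count of genes with a peak. They held from 17482 peaks in male day 4 to 123249 in female day 6, with a depth of 7520000 H3K27ac tags in male day 4 to 50500000 in male day 6. Peaks covered from 12.7 megabases in male day 4 to 159 megabases in female day 6. Each count of members is therefore read against the share of all 21000 genes in the same list. Of 10 myofiber marker genes, 3 to 9 had a peak within 1 kb of a start in each list, and Ckm, Tnnt3 and Des had one in all 8. Markers of other cells were present too. The male vehicle, day 4, day 6 and day 8 lists had a peak within 1 kb of a start of 3, 1, 1 and 0 of 9 immune markers, 7, 1, 5 and 1 of 7 endothelial markers and 4, 2, 2 and 0 of 6 fibroblast markers. The female lists in the same order had 0, 2, 4 and 3 immune, 1, 5, 7 and 7 endothelial and 3, 4, 5 and 6 fibroblast markers. Satellite cell markers, Pax7 and Myf5, had a peak in 0 of 2 in the 4 male lists and the female vehicle list, 1 in female days 4 and 6 and 2 in female day 8. Of the immune markers, Spi1 had such a peak in male vehicle, male day 4 and female days 4, 6 and 8, Cd68 in male vehicle and the same 3 female lists, Csf1r in female days 6 and 8, Cd3e in male vehicle, Lyz2 in male day 6 and C1qa in female day 6, while Ptprc, Adgre1 and Itgam had none in any list. The part of these cells in the results was not tested, and fewer cells of a type cannot be told apart from less H3K27ac per cell.

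A member was scored in a list when a peak overlapped, by at least 1 bp, the window within 10 kb of any of its starts. By this rule 31 of the 34 members had a peak in male vehicle, 23 in male day 4, 25 in male day 6 and 25 in male day 8, and 24 in female vehicle, 29 in female day 4, and all 34 in female days 6 and 8. The shares of all genes were 72.3%, 41.7%, 44.1% and 44.3% in the male lists and 45.8%, 67.3%, 78.3% and 71.8% in the female lists. The share of members was above the share of all genes in each list, and in all 8 the share of all genes lay below the interval of the members' share. In male day 4, for example, it was 67.6% (interval 50.8 to 80.9%) beside 41.7%, and in female day 4 85.3% (69.9 to 93.6%) beside 67.3%. In all 8 lists at the same time, 16 members (47.1%) had a window peak, beside 24.6% of all genes.

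Peaks over the gene body were found for 29, 19, 21 and 22 members in the male lists, where 69.3%, 38.5%, 41.8% and 42.3% of all genes had one, and for 21, 28, 32 and 31 members in the female lists, where 43.9%, 65.6%, 76.5% and 70.2% of all genes had one. Gene bodies of the members are short, with a median of 12.8 kb beside 16.7 kb over all genes. Over the promoter, taken as 1 kb to each side of any start, 28, 20, 20 and 21 members had a peak in the male lists and 19, 28, 31 and 32 in the female lists. The shares of all genes there were 54.9%, 31.8%, 32.0% and 35.5% in males and 29.5%, 54.3%, 69.9% and 62.5% in females. A body peak was present in all 8 lists for 14 members (41.2%, beside 21.2% of all genes), and a promoter peak for 13 (38.2%, beside 16.7%).

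**Figure D1:**
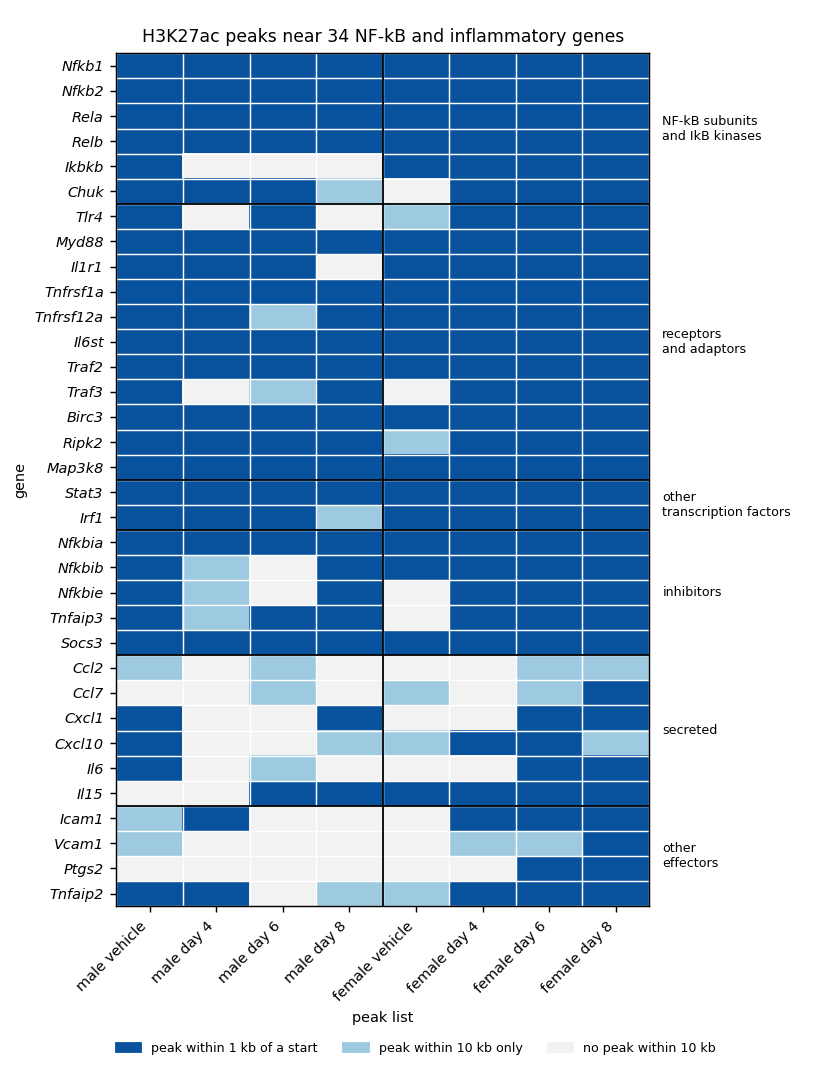
Presence of a deposited H3K27ac peak near each of the 34 genes (rows, grouped by role) in each of the 8 peak lists (columns): dark blue marks a peak within 1 kb of a start, light blue a peak within 10 kb only, and grey no peak within 10 kb. The upper rows, the pathway components, are dark in nearly every list, and all 6 secreted genes are grey in male day 4.

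To see how far list size set these counts, each list was cut to its 17482 highest-scoring peaks. Window peaks then remained at 23, 23, 22 and 23 members in the male lists and at 17, 19, 23 and 22 in the female lists, with 41.2%, 41.7%, 36.9% and 42.7% of all genes in males and 32.6%, 41.2%, 42.3% and 42.1% in females. The members' share stayed above that of all genes in each list, from 50.0% in female vehicle to 67.6% in 4 lists. In female day 4, however, the interval of the members' share (55.9%, 39.5 to 71.1%) held the 41.2% of all genes. At the promoter the margin was narrowest in female day 4, with 11 members (32.4%) beside 31.6% of all genes. At equal list size the male lists thus held a window peak for 22 to 23 members and the female lists for 17 to 23.

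The classes of the pathway differed in how often they carried a peak. Pathway components had a window peak in 19, 16, 18 and 16 of 19 genes in male vehicle and days 4, 6 and 8, and in 17, 19, 19 and 19 in the female lists. All 5 inhibitors had one in male vehicle, male days 4 and 8 and female days 4, 6 and 8, and 3 of 5 did in male day 6 and female vehicle. Of the 6 secreted genes, 4, 0, 4 and 3 had a window peak in the male lists and 3, 2, 6 and 6 in the female lists. The other effectors had one in 3, 2, 0 and 1 of 4 genes in males and 1, 3, 4 and 4 in females. In male day 4 the secreted genes were at 0 of 6 (interval 0 to 39.0%), below the 41.7% of all genes, while pathway components were at 16 of 19 (62.4 to 94.5%). In female day 4 the corresponding counts were 2 of 6 (9.68 to 70.0%) and 19 of 19 (83.2 to 100%). With 6 genes the intervals of the secreted class held the share of all genes in the other 7 lists. By gene body and by promoter, the secreted genes were also at 0 of 6 in male day 4 (0 to 39.0%). There the interval held the shares of all genes, 38.5% and 31.8%. The windows of Ccl2 and Ccl7 overlap, so the 6 genes are not independent. With lists of equal length, the secreted genes with a window peak numbered 1, 0, 4 and 3 in males and 2, 1, 2 and 3 in females, the pathway components 15, 16, 15 and 14 in males and 13, 13, 15 and 12 in females, and the inhibitors 5, 5, 3 and 5 in males and 2, 4, 3 and 5 in females.

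The same counts were made at promoters. A promoter peak was present in all 8 lists for 4 of 6 NF-kB subunits and IkB kinases, 6 of 11 receptors and adaptors, 1 of 2 other transcription factors, 2 of 5 inhibitors, 0 of 6 secreted genes and 0 of 4 other effectors. Of all genes, 16.7% had one in all 8 lists. The intervals at 0 of 6 (0 to 39.0%) and 0 of 4 (0 to 49.0%) held that share. Inhibitor promoters held a peak in 5, 2, 3 and 5 of 5 genes in the male lists and 3, 5, 5 and 5 in the female lists. For the secreted genes the counts were 3, 0, 1 and 2 of 6 in males and 1, 2, 4 and 4 in females. The shares of all genes were 54.9%, 31.8%, 32.0% and 35.5% in males and 29.5%, 54.3%, 69.9% and 62.5% in females.

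**Figure D2:**
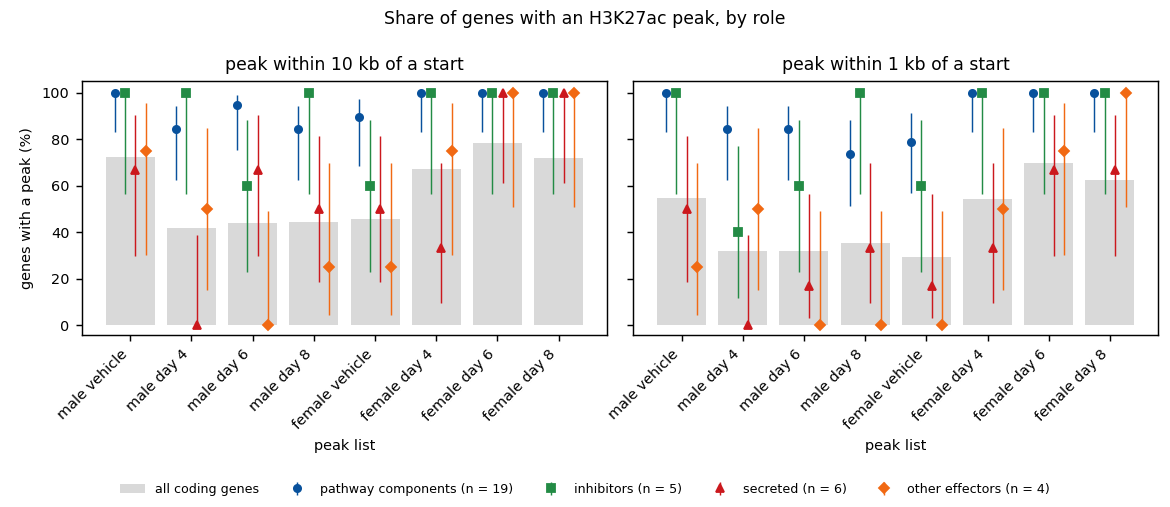
Share of genes with a peak (y axis, %) in each peak list (x axis), within 10 kb of a start on the left and within 1 kb on the right: grey bars are all coding genes, points are the 4 classes of members and vertical lines their Wilson 95% intervals. Pathway components lie above the grey bar in each list, and the secreted genes are at 0 in male day 4.

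The 42 other genes of the same pathways that were counted beside the members, such as Rel, Ikbkg, Traf6 and Tnip1, had a window peak in 41, 25, 28 and 26 genes in the male lists and 24, 41, 42 and 41 in the female lists. At promoters they had one in 36, 24, 24 and 23 genes in males and 16, 37, 41 and 39 in females. Their share was above that of the members in male vehicle (97.6% beside 91.2%) and female day 4 (97.6% beside 85.3%), below it in male days 4, 6 and 8, female vehicle (57.1% beside 70.6%) and female day 8, and equal to it in female day 6.

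Sequence upstream of the starts was available for 24 of the members in the RefSeq promoter table (GRCm38.p6, the mm10 assembly). The NF-kB consensus, searched on both strands in the 250 bases before each start, was found for 11 of these 24 genes (45.8%, interval 27.9 to 64.9%) and for 9.16% of the 16853 coding genes with an entry. The GR consensus ACANNNTGT was found for 2 of the 24 (8.33%, 2.32 to 25.8%), Chuk and Cxcl1, and for 6.06% of all. The 11 genes with an NF-kB match were Nfkb2, Il1r1, Traf3 and Irf1 among the pathway components, Nfkbia, Nfkbie and Tnfaip3 among the inhibitors, Cxcl1, Cxcl10 and Il6 among the secreted genes, and Tnfaip2. A match is a run of letters in the genome and not a measured binding site. The stretches before the starts of 3 inhibitors and 3 secreted genes are shown because both classes carry NF-kB matches there. The lists in which each match lay under a peak are given below gene by gene. Capitals mark NF-kB consensus matches, and runs longer than 10 capitals are overlapping matches. Each stretch is written 5′ to 3′ in the direction of transcription and lies just before the annotated start, outside annotated exons.
Nfkbia (chr12:55492648-55492897, minus strand): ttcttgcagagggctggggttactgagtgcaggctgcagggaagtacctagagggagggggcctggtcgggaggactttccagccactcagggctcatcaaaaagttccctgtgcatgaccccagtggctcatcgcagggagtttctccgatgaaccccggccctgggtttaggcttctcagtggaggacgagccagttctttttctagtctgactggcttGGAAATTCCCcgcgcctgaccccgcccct
Tnfaip3 (chr10:19015411-19015660, minus strand): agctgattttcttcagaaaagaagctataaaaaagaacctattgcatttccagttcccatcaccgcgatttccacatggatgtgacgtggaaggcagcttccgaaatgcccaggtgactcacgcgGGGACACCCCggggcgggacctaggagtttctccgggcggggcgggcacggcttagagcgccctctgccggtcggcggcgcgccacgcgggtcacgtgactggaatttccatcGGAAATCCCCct
Nfkbie (chr17:45555450-45555699, plus strand): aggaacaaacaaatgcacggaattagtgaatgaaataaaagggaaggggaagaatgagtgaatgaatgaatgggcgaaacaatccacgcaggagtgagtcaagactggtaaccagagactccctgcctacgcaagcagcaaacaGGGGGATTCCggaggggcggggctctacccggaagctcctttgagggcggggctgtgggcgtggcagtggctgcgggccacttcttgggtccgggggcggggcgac
Cxcl1 (chr5:90890995-90891244, plus strand): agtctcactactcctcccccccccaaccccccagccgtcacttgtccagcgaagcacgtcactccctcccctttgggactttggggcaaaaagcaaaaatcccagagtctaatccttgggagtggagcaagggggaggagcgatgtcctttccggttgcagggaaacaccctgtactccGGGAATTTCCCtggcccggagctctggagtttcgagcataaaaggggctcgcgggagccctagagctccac
Cxcl10 (chr5:92348890-92349139, minus strand): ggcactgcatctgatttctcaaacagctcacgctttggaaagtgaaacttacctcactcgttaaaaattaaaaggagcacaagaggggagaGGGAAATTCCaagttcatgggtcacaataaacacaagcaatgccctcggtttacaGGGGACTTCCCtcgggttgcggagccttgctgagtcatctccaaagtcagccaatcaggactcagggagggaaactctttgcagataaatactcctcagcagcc
Il6 (chr5:30012864-30013113, plus strand): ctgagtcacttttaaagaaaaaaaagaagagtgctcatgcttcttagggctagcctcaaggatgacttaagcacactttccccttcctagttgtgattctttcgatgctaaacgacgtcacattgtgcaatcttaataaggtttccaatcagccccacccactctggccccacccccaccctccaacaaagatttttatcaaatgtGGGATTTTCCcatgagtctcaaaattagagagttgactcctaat

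The match of Nfkbia began 29 bases before the start and lay under a peak in 7 lists, all but female vehicle. At Tnfaip3 both matches, 125 and 12 bases before the start, lay under a peak in 5 lists (male vehicle, male day 8 and female days 4, 6 and 8). The match of Nfkbie, 106 bases before its start, was covered in male day 8 and female days 6 and 8. At Cxcl1 the overlapping matches 71 and 70 bases before the start were covered in male vehicle, male day 8 and female days 6 and 8, as was the GR match of that promoter. At Cxcl10 the match 159 bases before the start was covered in no list and the overlapping pair nearer to it in female day 6, the 1 list that also covered the match of Il6. Nfkb2 was the 1 member with a match under a peak in all 8 lists.

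Counted over the 11 members with an NF-kB match, the match lay under a peak for 7, 3, 3 and 5 genes in male vehicle and days 4, 6 and 8 and for 1, 6, 10 and 9 in the female lists. Among all coding genes with a match the shares were 41.3%, 20.3%, 21.9% and 28.6% in males and 16.9%, 49.7%, 72.7% and 62.9% in females. The members' shares, 63.6%, 27.3%, 27.3% and 45.5% in males and 9.09%, 54.5%, 90.9% and 81.8% in females, were also highest in female days 6 and 8 and lowest in female vehicle.

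Levels are given for the window peak with the most tags in each list, as its fold over input (H3K27ac tags over input tags at equal depth) and as the percentile of its normalized tag count among all peaks of that list. Tag counts add up over the length of a peak, so a long peak ranks high. The peak with the most tags need not lie over the promoter. Levels are not compared between lists, since the lists differ in depth and input. A high fold can rest on few input tags, as at Nfkb1 in male day 4, where a fold of 27.7 stood on 0.400 scaled input tags.

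Among the NF-kB subunits, Nfkb1, which encodes p105 and its product p50, had folds of 9.03 in male vehicle, 27.7, 6.59 and 10.8 in male days 4, 6 and 8, and 14.8, 7.01, 35.4 and 25.9 in the female lists in the same order. Its strongest peak covered the start in 5 lists and ranked at percentile 44.4 at the lowest, in male day 4. The Nfkb1 gene body, 107 kb long, held 24 peaks in female day 6 and 1 in male day 4. Nfkb2, the gene of p100 and p52 of the noncanonical branch, had folds of 7.61, 8.29, 3.64 and 3.75 in males and 3.89, 7.62, 33.8 and 44.0 in females. Its strongest peak covered a start in all 8 lists and ranked at percentile 92.5 or above.

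Rela, which encodes the activating subunit p65, had folds of 14.8, 9.98, 4.92 and 4.14 in males and 3.89, 8.77, 20.1 and 22.3 in females, at percentiles 85.4 to 99.5. Relb, the partner of p52, had folds of 4.94, 18.5, 2.48 and 5.31 in males and 4.45, 8.59, 37.0 and 11.2 in females, and its strongest peak covered the start in all 8 lists. Both genes thus carried a promoter peak whatever the group. The kinase genes were less regular. Ikbkb, the catalytic kinase of the canonical branch, had no window peak in the 3 male prednisone lists and one in the other 5. Chuk, the kinase shared with the noncanonical branch, lacked one in female vehicle alone, and its male day 8 peak lay 8.03 kb before the start.

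Receptor and adaptor genes held some of the strongest peaks of the set. Myd88, the adaptor of Toll-like and interleukin 1 receptors, had folds of 7.63, 6.60, 4.75 and 3.94 in males and 5.39, 12.6, 21.8 and 42.3 in females. Its window also holds the start of Acaa1a. Tnfrsf1a, the main TNF receptor, had folds of 4.95, 11.0, 2.71 and 3.67 in males and 6.97, 6.17, 18.1 and 18.6 in females. In female day 6 its peak spanned 17.3 kb with 1221 normalized tags (scaled to 10000000 tags per list), percentile 99.9 of that list. Tnfrsf12a, the receptor of the cytokine TWEAK, had folds of 5.10, 8.90, 2.34 and 3.77 in males and 4.65, 9.36, 33.9 and 21.7 in females. Its window holds the starts of 4 other coding genes (Cldn6, Cldn9, Hcfc1r1 and Thoc6).

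Il6st, which encodes the signal-transducing subunit gp130 of the interleukin 6 receptor, ranked at percentiles 97.2 to 99.2, with folds of 7.70, 13.7, 5.14 and 6.35 in males and 12.6, 9.01, 70.8 and 34.5 in females. Its strongest peak covered the start in all 8 lists. Map3k8, a kinase that activates MAP kinases downstream of these receptors, ranked at percentile 95.4 or above, with folds of 16.7, 10.1, 5.15 and 3.97 in males and 6.64, 10.1, 34 and 28.2 in females. Traf2, an adaptor of TNF receptors, had folds of 7.70, 12.9, 2.89 and 5.44 in males and 12.4, 9.18, 14.2 and 13.4 in females. In male vehicle, female vehicle and female day 8 the Traf2 fold belongs to a peak centered 10.8, 10.6 and 10.7 kb before the start, in a window that overlaps that of Edf1, and its promoter peaks there had folds of 6.62, 5.03 and 16.6. Each of these 3 genes had a promoter peak in all 8 lists.

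Birc3, which encodes a ubiquitin ligase of the TNF receptor complex, had folds of 4.82, 6.94, 3.38 and 5.24 in males and 4.79, 6.82, 15.2 and 13.0 in females. In male day 4 the Birc3 fold belongs to a peak centered 7.78 kb before the start. Its promoter peak there had a fold of 12.7, at percentile 34.5. Ripk2, the kinase of NOD receptors, had folds of 3.43, 5.78, 8.75 and 12.9 in males and 19.0, 4.37, 8.94 and 8.85 in females. In male day 6 and female vehicle the Ripk2 fold belongs to a peak centered 5.74 and 5.11 kb before the start. Female vehicle had no Ripk2 promoter peak. Ripk2 had a window peak in all 8 lists, but no 1 region of its window was shared by all 8. Tlr4, the receptor of bacterial lipopolysaccharide, lacked a window peak in male days 4 and 8, Il1r1, the interleukin 1 receptor, in male day 8, and Traf3, an adaptor that restrains the noncanonical branch, in male day 4 and female vehicle. Where present, their strongest peaks ranked from percentiles 13.1 to 93.9.

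Of the other transcription factors, Stat3, which acts downstream of gp130, had folds of 8.14, 15.8, 3.17 and 4.07 in males and 7.22, 13.0, 51.2 and 12.7 in females, always over its start and at percentile 97.6 or above. Irf1, an interferon-responsive factor that is itself an NF-kB target, had folds of 7.79, 7.54, 2.57 and 6.25 in males and 5.35, 6.70, 20.4 and 25.8 in females. The strongest Irf1 window peak never covered a start. Its center lay before the gene in all 8 lists, from 6.23 kb in male day 8 to 9.18 kb in female day 6, and it ranked at percentile 95.9 or above. Irf1 also had a promoter peak in 7 lists, all but male day 8.

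**Figure D3:**
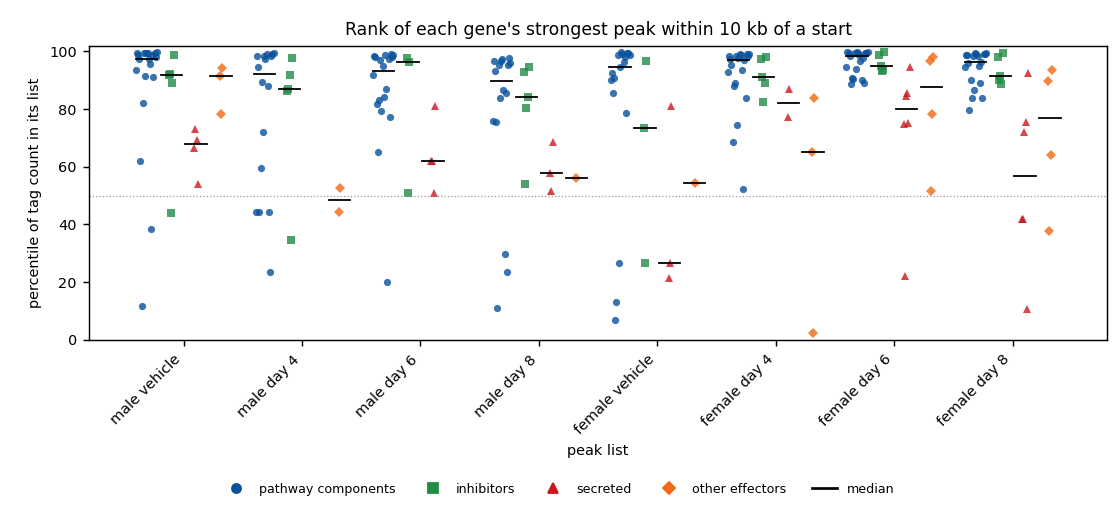
Percentile of the normalized tag count of each gene's strongest window peak within its list (y axis) in the 8 peak lists (x axis): each point is a gene with a window peak, colored by class, and black bars are medians. Pathway components cluster near the top of each list, while the secreted genes reach percentile 94.5 at most. Ranks over all genes were not computed.

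Over all lists, the strongest window peaks of pathway components had a median percentile of 95.9 (143 pairs of gene and list with a peak), those of inhibitors 91.8 (36), those of the secreted genes 68.8 (28) and those of the other effectors 71.8 (18). They covered a start in 72.7%, 63.9%, 28.6% and 50.0% of these pairs. Pairs of a gene in several lists are not independent, and pairs with no peak are left out, so these medians describe the peaks and are no test between classes.

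The inhibitors do not all limit the pathway at the same point. Nfkbia encodes IkBα (chr12:55489409-55492647, minus strand), the main inhibitor that holds NF-kB in the cytoplasm. It had folds of 3.60, 20.0, 3.68 and 5.82 in males and 8.51, 9.19, 26.5 and 36.2 in females, with a promoter peak in all 8 lists. The fold of 20.0 in male day 4 stood on 1.30 scaled input tags. Socs3 encodes the inhibitor of gp130 and STAT3 signaling (chr11:117966079-117969366, minus strand), and had folds of 3.68, 6.36, 3.08 and 5.64 in males and 7.71, 7.39, 23.7 and 32.4 in females, also with a promoter peak in all 8 lists. In female day 6 its peak spanned 11.6 kb, at percentile 99.8. Nfkbia and Socs3 were the inhibitors whose peaks were shared by all groups.

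The remaining 3 inhibitors had a peak in some groups. Tnfaip3 (chr10:19000910-19015410, minus strand) encodes A20, an enzyme that edits ubiquitin chains on the adaptors and so ends the signal. It had folds of 5.32, 5.09, 4.24 and 2.79 in males, none in female vehicle, and 5.08, 13.6 and 18.8 in female days 4, 6 and 8. The male vehicle peak lay over its promoter, and the male day 4 list held instead 2 peaks before the gene, centered 1.71 and 7.38 kb from the start. Nfkbib, which encodes IkBβ, had folds of 5.04, 5.94 and 5.72 in male vehicle and days 4 and 8, no window peak in male day 6, and 10.7, 4.01, 14.3 and 7.41 in females. Nfkbib lies beside the start of Sirt2, and its male day 4 peak was centered 9.11 kb before its own start. Nfkbie, which encodes IkBε, had folds of 3.16, 12.1 and 3.16 in male vehicle and days 4 and 8, and 7.01, 13.2 and 6.28 in female days 4, 6 and 8, with no window peak in male day 6 or female vehicle. In all lists but male vehicle the strongest Nfkbie peak lay 8.42 to 8.81 kb past the start, in a window that also holds the starts of Slc35b2 and Tmem151b.

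The 6 secreted genes had a window peak in 28 pairs of gene and list, with a median fold of 6.71, beside 36 pairs and 6.32 for the 5 inhibitors. Ccl2, which encodes a chemokine that attracts monocytes, had no peak over its promoter or body in any list. Its window peaks had folds of 11.0 in male vehicle, 7.76 in male day 6, 8.87 in female day 6 and 5.25 in female day 8. Ccl7, a related chemokine gene whose window overlaps that of Ccl2, had folds of 7.76 in male day 6 and 10.2, 5.19 and 7.0 in female vehicle and days 6 and 8. The male day 6 peak of the pair is the same peak, and the female day 6 peak given for Ccl7 also lies in the Ccl2 window, so each counts for both genes. When a peak counted only for its nearest gene, Ccl7 had a window peak in 1 list and Ccl2 in 4. A peak over the Ccl7 promoter was present in female day 8 alone, with 6.04 normalized tags, percentile 10.7.

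Cxcl1, which encodes a chemokine for neutrophils (chr5:90891245-90893121, plus strand), had folds of 3.75 in male vehicle, 3.06 in male day 8, and 10.9 and 26.4 in female days 6 and 8, over the start in each case. Cxcl10, the gene of an interferon-induced chemokine (chr5:92346638-92348889, minus strand), had folds of 22.7 and 5.51 in male vehicle and day 8 and 5.35, 5.21, 11.8 and 6.30 in females. Its strongest peak lay 4.60 to 4.95 kb before the start in each of these 6 lists. Both chemokine genes were without any window peak in male days 4 and 6.

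Il6, which encodes interleukin 6, a cytokine that working muscle also releases (chr5:30013114-30019975, plus strand), had folds of 4.23 and 25.5 in male vehicle and day 6 and 6.42 and 14.4 in female days 6 and 8. It had no window peak in the other 4 lists, day 4 of both sexes among them. Il15, a cytokine gene expressed in muscle, stood apart among the secreted genes. It had folds of 4.49 and 3.06 in male days 6 and 8 and 4.99, 4.30, 17.6 and 19.3 in the female lists, with a promoter peak in these same 6 lists. Ccl2, Cxcl1 and Il6, and Ptgs2 of the other effectors, had no window peak in female vehicle or day 4 and one in days 6 and 8. Of all genes, 45.8%, 67.3%, 78.3% and 71.8% had a window peak in the female lists, and the share with this pattern was not counted. With lists of equal length, 2, 1, 2 and 3 secreted genes had a window peak in the female lists.

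The 4 other effectors are induced targets. Icam1, an adhesion molecule for leukocytes, had folds of 5.00 in male vehicle and 6.16 in male day 4, none in male days 6 and 8 or female vehicle, and 3.45, 11.4 and 9.71 in female days 4, 6 and 8. Tnfaip2, a TNF-induced gene, had folds of 2.12, 7.51 and 3.55 in male vehicle and days 4 and 8 and 6.81, 7.59, 7.14 and 15.4 in females. Its strongest peaks in male days 4 and 8 were centered 6.37 and 4.57 kb past the start, and in female vehicle 5.63 kb before it. Vcam1, another adhesion molecule, had a window peak in male vehicle and female days 4, 6 and 8. Ptgs2, which encodes the cyclooxygenase COX-2 of prostaglandin synthesis, had a window peak only in female days 6 and 8, over its start, with folds of 8.84 and 9.45. The female day 6 and 8 lists thus held a window peak for each of the 4 (interval 51.0 to 100%), beside 78.3% and 71.8% of all genes. The male day 6 list held one for none (0 to 49.0%), beside 44.1%. These intervals held the shares of all genes. With lists of equal length, the other effectors with a window peak numbered 2, 2, 0 and 1 in males and 0, 1, 3 and 2 in females.

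**Figure D4:**
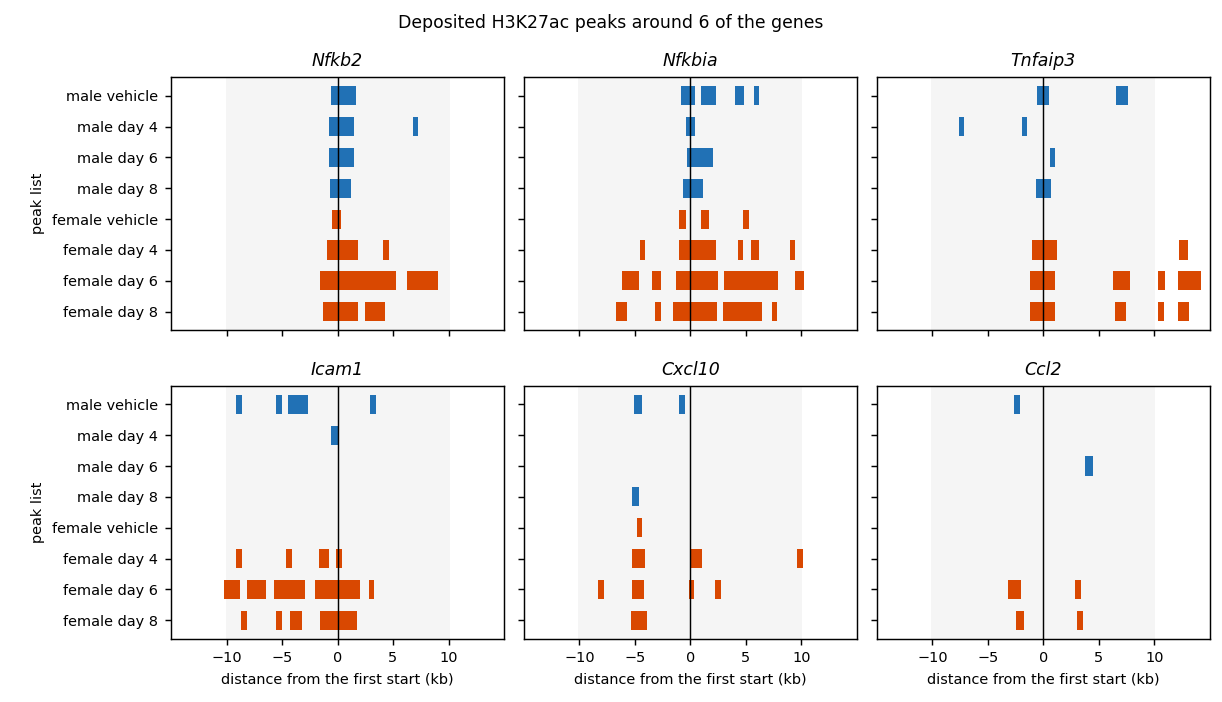
Deposited peaks (bars, drawn to scale) around the first start of Nfkb2, Nfkbia, Tnfaip3, Icam1, Cxcl10 and Ccl2, by distance from the start in the direction of transcription (x axis, kb) and peak list (y axis), males in blue and females in orange, with 10 kb to each side of that start shaded (the window of Tnfaip3 reaches farther, since it has a second start). A peak spans the Nfkb2 start in all 8 lists, the Cxcl10 peaks near 5 kb before the start recur in 6 lists, and no peak touches the Ccl2 start.

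Where peaks of different lists were joined when they overlapped, the member windows held 166 regions. Of these, 16 had a peak in all 8 lists, in 15 members, with 2 of them at Irf1, and 70 had a peak in 1 list. All but the Irf1 region before the gene reached a start. In female days 4, 6 and 8 and no other list, 3 regions had a peak, at Myd88, Traf3 and Tnfaip3, which lay 4798, 5726 and 8718 bp from the nearest start of that gene. Regions were not joined over the windows of all genes, so these counts have no share beside them and are not shown to be particular to the members.

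The study called a day 4 peak with no overlap with any same-sex vehicle peak a prednisone-responsive enhancer. The male list gave 9 such peaks in the windows of 7 members, and 13.2% of all genes had one in the window. The female list gave 52 in 24 members, where 56.2% of all genes had one. With lists of equal length such peaks were found for 13 members in males, beside 25.6% of all genes, and for 15 in females, beside 28.4%. As shares of the 34 members the counts from the full lists are 20.6% in males (interval 10.3 to 36.8%) and 70.6% in females (53.8 to 83.2%). Male day 4 had the fewest tags and the shortest list, and female vehicle a shorter list than female day 4, so the counts of the sexes cannot be told apart from list size.

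In both sexes 7 members had such a peak, namely Birc3, Icam1, Nfkb1, Nfkb2, Nfkbib, Tnfaip2 and Tnfaip3 (20.6%, interval 10.3 to 36.8%), beside 10.2% of all genes. These were all the members that had one in males, and 24 of 34 had one in females. At Nfkbib the peaks of the sexes overlapped each other, near 9.11 kb before the start, close to Sirt2. At Icam1 the male peak (chr9:21015377-21016061) and the female peak (chr9:21015819-21016319) also overlapped, over the start. At the other 5 the peaks of the sexes lay apart.

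Of the 9 male peaks, 1 (11.1%, interval 1.99 to 43.5%), at Nfkb1, was present at day 6 and 0 (0 to 29.9%) at day 8. Over all windows of coding genes 10.2% of male peaks of this kind were present at day 6, 10.2% at day 8 and 3.66% at both days. Of the 52 female peaks, 39 (75.0%, 61.8 to 84.8%) were present at day 6, 30 (57.7%, 44.2 to 70.1%) at day 8, 29 at both days and 12 at neither. Over all windows 68.7% of female peaks of this kind were present at day 6, 61.5% at day 8 and 56.6% at both. The shares of the members lay within their counting error of those of all genes in both sexes.

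By tag count these peaks ranked at percentiles 0.326 to 91.5 of the day 4 list in females and 5.13 to 87.1 in males. In females 28 of the 52 were below the median tag count of that list and 29 had a length of 501 bp, and in males 7 of 9 were below the median. The 11 female peaks over a promoter were higher, with a median of 14.3 normalized tags and percentile 74.3, beside 5.92 tags and percentile 34.9 for the 41 elsewhere in the windows. All 11 were present at day 6 and 10 at day 8, beside 28 and 20 of the 41. The shares for such promoter peaks over all genes were not counted, so this cannot be read as a trait of the members. The promoter peaks were at Chuk, Il1r1, Irf1, Ripk2, Traf3, Nfkbie, Tnfaip3, Cxcl10, Tnfaip2 and, with 2, Icam1. The strongest were at Irf1, with 40.6 normalized tags and a fold of 6.02, Tnfaip3, with 34.3 and 5.08, and Chuk, with 31.2 and 5.25.

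**Figure D5:**
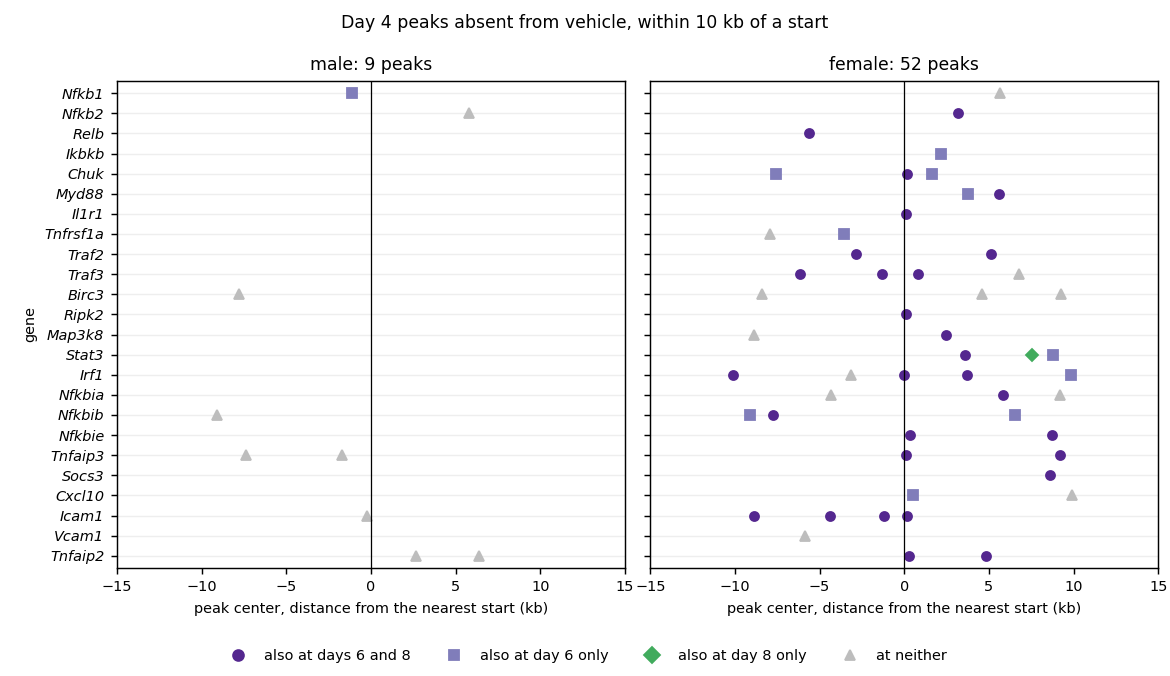
Day 4 peaks with no overlap with a same-sex vehicle peak, by distance of the peak center from the nearest start of the gene (x axis, kb), with 1 row per gene (y axis) and males and females in separate panels. Color and shape show whether a peak was present at days 6 and 8: of the 52 female peaks 29 were present at both, and of the 9 male peaks none was.

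In the central 501 bp of these peaks the NF-kB consensus was found in 12 of the 52 female peaks (23.1%, 13.7 to 36.1%), beside 13.0% of all 17310 such female peaks in gene windows, and in 1 of the 9 male peaks (11.1%, 1.99 to 43.5%), beside 11.8% of 2511. The GR consensus was found in 4 of the 52 female peaks (7.69%, 3.03 to 18.2%), beside 12.7%, and in 0 of the 9 male peaks (0 to 29.9%), beside 10.3%. The female peak centered 5.61 kb before Relb, absent in vehicle and present at days 4, 6 and 8, held a match to each consensus. The peak centered 1.20 kb before Icam1, present on the same days, held an NF-kB match, and the peak 4.32 kb before Nfkbia, present at day 4 only, held overlapping NF-kB matches. Their sequences are shown on the plus strand because they lie outside annotated exons and belong to a subunit, an effector and an inhibitor of the pathway, with matches in capitals.
Relb peak, NF-kB then GR match (chr7:19635098-19635232): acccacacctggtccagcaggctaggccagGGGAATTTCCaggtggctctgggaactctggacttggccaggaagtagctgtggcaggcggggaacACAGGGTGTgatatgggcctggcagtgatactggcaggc
Icam1 peak, NF-kB match (chr9:21014500-21014569): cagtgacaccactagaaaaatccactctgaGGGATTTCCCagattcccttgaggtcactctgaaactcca
Nfkbia peak, NF-kB matches (chr12:55496714-55496784): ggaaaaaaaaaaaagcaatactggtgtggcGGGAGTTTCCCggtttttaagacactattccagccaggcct

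Taken by whole windows, 8 members had a peak in male vehicle and none in male day 4, namely Ikbkb, Tlr4, Traf3, Ccl2, Cxcl1, Cxcl10, Il6 and Vcam1, while 32.0% of all genes did (8 of 34 is 23.5%). With lists of equal length these were 4 members in males, beside 12.0% of all genes, and 5 in females, beside 8.88% of all genes, so the order of the sexes turned. Of the 8 male members from the full lists, 4 had a window peak again at day 6 and 3 at day 8. The share of all such genes with a later peak was not counted. The reverse, a window peak at male day 4 and none in vehicle, was found for 0 members, beside 1.38% of all genes. In females 1 member, Ccl7, had a peak in vehicle and none at day 4, beside 4.47% of all genes. A window peak at female day 4 and none in vehicle was found for 6 members (17.6%), Chuk, Traf3, Nfkbie, Tnfaip3, Icam1 and Vcam1, beside 26.0% of all genes. All 6 had a window peak at days 6 and 8 as well, but so did all 34 members, so this cannot show lasting gains. Counted over the genes that could show it, 8 of the 31 members with a male vehicle peak had none at day 4 (25.8%, interval 13.7 to 43.2%), beside 44.3% of all genes with one. In females this was 1 of 24 (4.17%, 0.739 to 20.2%), beside 9.75%. Of the members without a vehicle peak, 0 of 3 had a window peak at male day 4 (0 to 56.1%), beside 4.98% of all such genes, and 6 of 10 at female day 4 (60.0%, 31.3 to 83.2%), beside 48.0%.

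In 2 members (5.88%, interval 1.63 to 19.1%), Traf3 and Vcam1, window peaks from vehicle to day 4 differed in opposite directions between the sexes, beside 13.0% of all genes. Traf3 had a window peak in male vehicle, not in male day 4, and in male days 6 and 8, while females had none in vehicle and 4 peaks at day 4. Vcam1 had a window peak in male vehicle and in no male prednisone list, and in females none in vehicle and 1, 1 and 2 peaks at days 4, 6 and 8. The female day 4 peak of Vcam1 was among the smallest of its list, with 4.70 normalized tags at percentile 2.40, and no difference between the sexes was tested.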

How the data were processed

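The deposited files are 8 peak lists, 1 per sex and group, from 16 H3K27ac and 8 input libraries. Per the study's methods, reads were trimmed by the authors (homerTools), mapped to mm10 (Bowtie2) and passed to the findPeaks program of HOMER in its histone mode, with at least 2-fold over input required. The submitters' processing notes name TopHat2 2.1.0, Bowtie2 2.2.6 and HOMER. The way the 2 libraries entered 1 list is not given in the sources used here. The authors' columns used were the normalized tag count, a signal scaled to 10000000 tags, the findPeaks score, the total H3K27ac tags and control (input) tags of each peak, and the fold over control, a ratio. The ratio rests on a floor of input tags, so it is high where the input had almost none. In 6 lists the H3K27ac tags were deposited scaled to the input and in 2 the input was scaled to H3K27ac. Depth was 7520000 to 50500000 tags per list. In the 6 lists with scaled H3K27ac tags it was read from the whole-number steps of low normalized values. In the other 2, male day 4 and female day 6, it came from the median ratio of total to normalized tags in the largest peaks. The p-value and clonal columns were not used.

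Gene models were the 39650 curated RefSeq transcripts (NM and NR) of 21000 protein-coding genes. Overlaps of 1 bp or more were scored with Python 3.11.15, numpy 2.4.6 and pandas 2.3.3, figures were drawn with matplotlib 3.10.9, and the scoring was tested on simulated peaks. All 34 members are named. Folds in each list are given for members with a window peak in all 8 or in at most 1 list, the inhibitors, the secreted genes, and members with a day 4 peak absent from vehicle in both sexes. The members, classes and lists were chosen with earlier results of these data known. A check of GC or CpG content over the members was void, because 24 of 34 have a promoter sequence. Alternatives were lists of equal length, a fold of at least 4, an overlap of 50% of the peak, windows of 5 and 2 kb, all RefSeq transcripts, and peaks nearest to the member. No batch, date or lane was compared, since each group has 1 list. Of the immune markers, 1 is not reported here.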

Additional observations from a re-analysis of the deposited data

Results flagged for a closer look

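Differences from vehicle in the number of members with a peak went in opposite directions in the sexes by all 3 rules, with 1 list per group, and the difference between the sexes was not tested. Within 10 kb of a start, male lists differed from male vehicle by -8 members at day 4, -6 at day 6 and -6 at day 8, and female lists from female vehicle by 5, 10 and 10. Over the gene body the differences were -10, -8 and -7 in males and 7, 11 and 10 in females. Within 1 kb of a start they were -8, -8 and -7 in males and 9, 12 and 13 in females. With lists of equal length, males were lower and females higher than vehicle only at day 6 within 10 kb and over the gene body. At days 4, 6 and 8 the differences were then 0, -1 and 0 in males and 2, 6 and 5 in females within 10 kb, 1, -1 and 3 in males and -1, 6 and 5 in females over the gene body, and 3, 0 and 3 in males and -4, 1 and 3 in females within 1 kb. The direction thus turned in both sexes at day 4 over the body and within 1 kb. In the full lists the shares of all coding genes went the same way as the members, from 72.3% to 41.7%, 44.1% and 44.3% for the 10 kb window in males and from 45.8% to 67.3%, 78.3% and 71.8% in females, as did the number of peaks, from 87600 to between 17482 and 32188 in males and from 38861 to between 67503 and 123249 in females.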

How the results depend on the processing

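No paired analysis was possible because the result comes from no test and the lists hold no value per library. Of 156 alternative values for 28 counts, 134 stayed within 1.5 times the main count and 22 did not. With lists of equal length, window counts were 19 in female day 4 and 22 in female day 8. Body counts were then 18 in male vehicle and 14, 21 and 20 in female days 4, 6 and 8, and promoter counts 17 in male vehicle and 11, 16 and 18 in female days 4, 6 and 8. Members with a day 4 peak absent from vehicle numbered 13 in males and 15 in females, and members with a vehicle peak and none at day 4 numbered 4 and 5. With a fold of at least 4, 10 members had a promoter peak in male day 6. With 50% of the peak inside the promoter the counts were 19 and 21 in female days 6 and 8. With a 5 kb window the day 4 gain was found for 4 male members and the female loss for 0, and with 2 kb the gain for 3 male and 12 female members and the loss for 0 female members. Depth limits what an absent peak means, above all in male day 4 with 7520000 tags.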
